A study of Mus musculus with 12 samples.

Results

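The nuclear genes of the mitochondrial respiratory chain were examined in pancreatic islets, the hormone-secreting cell clusters of the pancreas. They were taken by symbol (Nduf genes of the a, b, c, s and v series, Sdha to Sdhd, Uqcr genes, Cyc1, Cycs, Cox4 to Cox8 genes and Atp5 genes), which gave 94 of the 24421 genes counted. By complex they were 45 genes of complex I, 4 of complex II, 9 of complex III, 1 gene of cytochrome c, 18 of complex IV and 17 of complex V. Islets came from mice fed a high-fat diet for 6 weeks. The 6 BKO libraries came from Il22ra1βKO mice, in which the gene of interleukin-22 receptor subunit alpha 1 is knocked out in the insulin-producing β cells. The 6 Cre libraries came from Ins2Cre mice, which carry the Cre recombinase under the insulin 2 promoter without that knockout. The labels do not name the Cre line behind the knockout, and islets also hold other cells that it does not target. Sex, age and strain were not given in the sources used here, nor whether the libraries of a group came from separate mice, so p-values measure the spread between libraries.

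The respiratory chain sits in the inner mitochondrial membrane. Complex I takes electrons from NADH and complex II takes them from succinate, ubiquinone carries them to complex III, cytochrome c carries them to complex IV, and complex IV passes them to oxygen. Complexes I, III and IV pump protons, and complex V, the ATP synthase, uses the proton gradient to make ATP. In β cells the ATP made from glucose closes potassium channels, which opens calcium channels and releases insulin. A few subunits come from mitochondrial DNA. No symbol of a mitochondrial DNA gene was found (0 symbols starting with mt-), so those subunits were not analysed here.

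The gene symbols say little about a subunit's role, so roles were assigned from textbook knowledge. Complex I held 7 core subunits, 29 accessory subunits and 7 assembly factors (Ndufaf genes). Ndufa4, despite its symbol, is a subunit of complex IV, and Ndufa4l2 is its paralog; both stayed under complex I by symbol. Complex IV included 7 isoforms restricted to tissues such as muscle, lung or testis, and Cox7a2l, which helps to join complexes into supercomplexes. Complex V held 5 subunits of the catalytic F1 head, and its remaining genes belong to the membrane part, the stalk or, for Atp5s and Atp5sl, to neither.

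The promoters of these genes are known for sites of nuclear respiratory factor 1 (NRF1), of the ETS factor GABP (also called NRF2) and of YY1. For NRF1 the letters GCGC, A, any base and GCGC were searched as a run, for ETS CCGGAAG and for YY1 AAGATGGCG, on both strands in the 250 bases before each start in RefSeq's promoter set for GRCm38.p6. Of the 94 members, 77 matched that set, with 83 promoters. NRF1 letters were found in 18.1% of member promoters, against 7.49% of the promoters of all genes tested and 3.74% of all promoters. ETS letters were found in 15.7% of member promoters, against 12.5% and 6.91%, and YY1 letters in 2.41%, against 1.11% and 0.606%. At least 1 of the 3 was found in 31.3% of member promoters (25 members), against 19.6% and 10.5%. These are matches of letters, not measured binding. The promoter with a match that belongs to the most highly expressed such gene of each complex is printed here. It shows how these letters lie ahead of the start in RefSeq's set. Sequences are in lower case with the matched letters in capitals, 5′ to 3′ on the strand of the gene. An ETS match on the other strand reads CTTCCGG. The windows lie at chr17:56717512-56717761 (plus strand) for Ndufa11, chr9:50603850-50604099 (minus) for Sdhd, chr4:116075071-116075320 (minus) for Uqcrh, chr5:115348959-115349208 (minus) for Cox6a1 and chr9:44920743-44920992 (minus) for Atp5l.
Ndufa11: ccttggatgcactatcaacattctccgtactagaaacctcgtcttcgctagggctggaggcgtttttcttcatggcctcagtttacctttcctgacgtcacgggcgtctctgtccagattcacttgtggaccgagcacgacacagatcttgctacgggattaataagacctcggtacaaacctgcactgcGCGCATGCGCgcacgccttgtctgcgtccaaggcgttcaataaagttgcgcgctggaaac
Sdhd: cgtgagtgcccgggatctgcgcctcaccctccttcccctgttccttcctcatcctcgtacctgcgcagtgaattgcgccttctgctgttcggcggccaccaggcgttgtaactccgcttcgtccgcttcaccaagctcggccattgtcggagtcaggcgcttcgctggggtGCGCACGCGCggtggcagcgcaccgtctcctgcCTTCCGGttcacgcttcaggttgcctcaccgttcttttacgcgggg
Uqcrh: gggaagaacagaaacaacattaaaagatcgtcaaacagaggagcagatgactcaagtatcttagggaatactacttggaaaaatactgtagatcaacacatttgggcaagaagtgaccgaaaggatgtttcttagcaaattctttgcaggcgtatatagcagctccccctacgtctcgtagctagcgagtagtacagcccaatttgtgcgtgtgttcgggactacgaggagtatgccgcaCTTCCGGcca
Cox6a1: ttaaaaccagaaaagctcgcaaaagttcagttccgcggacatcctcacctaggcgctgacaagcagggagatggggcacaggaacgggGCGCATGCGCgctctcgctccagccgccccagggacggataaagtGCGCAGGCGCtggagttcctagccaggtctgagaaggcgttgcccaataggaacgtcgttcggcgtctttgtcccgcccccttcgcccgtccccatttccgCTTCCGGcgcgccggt
Atp5l: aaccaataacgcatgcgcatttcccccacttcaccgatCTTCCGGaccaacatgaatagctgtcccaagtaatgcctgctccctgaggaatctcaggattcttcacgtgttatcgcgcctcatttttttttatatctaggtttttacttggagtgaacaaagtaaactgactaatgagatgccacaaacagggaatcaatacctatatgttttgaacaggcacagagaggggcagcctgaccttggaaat
The Ndufa11 window held an NRF1 match, the Sdhd window an NRF1 and an ETS match, and the Cox6a1 window 2 NRF1 matches and an ETS match. In the GENCODE M21 annotation the Cox6a1 gene starts farther upstream, at 115348981, so that ETS match lies inside the gene as annotated there. The Uqcrh and Atp5l windows held an ETS match each. None of these 5 genes was called as changed in BKO islets, as described for each complex.

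Gene reads numbered 10356093 to 11902217 per BKO library and 11444273 to 12397139 per Cre library. The members together took 0.793 to 0.904% of the gene reads in BKO and 0.817 to 0.889% in Cre. Il22ra1 had 1 to 3 reads per BKO library and 1 to 5 per Cre library, too few to check the knockout in whole islets. The summed level of the β-cell markers was 97991 to 156260 CPM (counts scaled to the library size) in BKO and 121158 to 152444 CPM in Cre, so the libraries were of islets by their markers. The 12 endothelial markers all had positive fold changes, with sums of 601.9 to 863.2 CPM in BKO and 474.8 to 682.3 CPM in Cre, with 0 called by edgeR and 8 by DESeq2 and 9 in a fit that blocks on the replicate number. The acinar marker sum was 1475 to 5310 CPM in BKO and 239.1 to 6762 CPM in Cre. Of the 10 β-cell markers, 9 had negative fold changes, and of the 5 α-cell markers, which mark the glucagon-producing cells, 5 had positive ones. In both lists 0 were called by edgeR, while DESeq2 called 1 β-cell marker lower and 3 α-cell markers higher, and the blocked fit called 4 α-cell markers higher. In bulk islets, fewer cells of a type and less RNA per cell cannot be told apart. The part of cell makeup in the members' values was not tested beyond the fits with the endothelial or acinar score as a covariate.

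The study asked which islet transcripts differ when β cells lack the receptor, and the genes of respiration are taken from that comparison. No member of any complex was called higher or lower in BKO islets in the quasi-likelihood test of edgeR, with p-values adjusted by Benjamini-Hochberg over the 13583 genes tested and a threshold of 0.05. Of the 94 members, 87 passed the filter on low counts and were tested (44 of complex I, 4 of complex II, 9 of complex III, cytochrome c, 12 of complex IV and 17 of complex V). The background was empty too, with 0% of all genes called higher and 0% called lower. Under DESeq2, which called 1.24% of all genes higher and 0.398% lower, the members called were still 0. They were also 0 in the fits without a single library that called the most genes, without BKO-4 (0.989% of all genes higher and 0.93% lower) and without Cre-5 (0.77% higher and 0.0367% lower). At an unadjusted p under 0.05 there was 1 member, Ndufa4l2, which is 1.15% of the members tested, against 13.4% of all genes (8.7% higher and 4.66% lower). The groups did not overlap in CPM for 0 members, against 0.508% of all genes.

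The fold changes of the members lay close to 1. The 95% interval of the fold change lay between 0.8 and 1.25 for 82 of the 87 members (94.3%), against 58.2% of all genes tested. Members are well-counted genes, so the nearer yardstick is the 9712 genes with a mean of 10 to 1000 CPM, of which 78.6% had such an interval. All 81 members in that range had one, and 0 of them had an unadjusted p under 0.05, against 12.4% of the genes of that range. The size of the log2 fold change had a median of 0.036 over the members, 0.065 over the genes of that range and 0.081 over all genes. It was at most 0.1 for 89.7% of members, 68.4% of the genes of that range and 57.6% of all genes. Members of a chain can vary together, so these shares are descriptions.

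**Figure D1:**
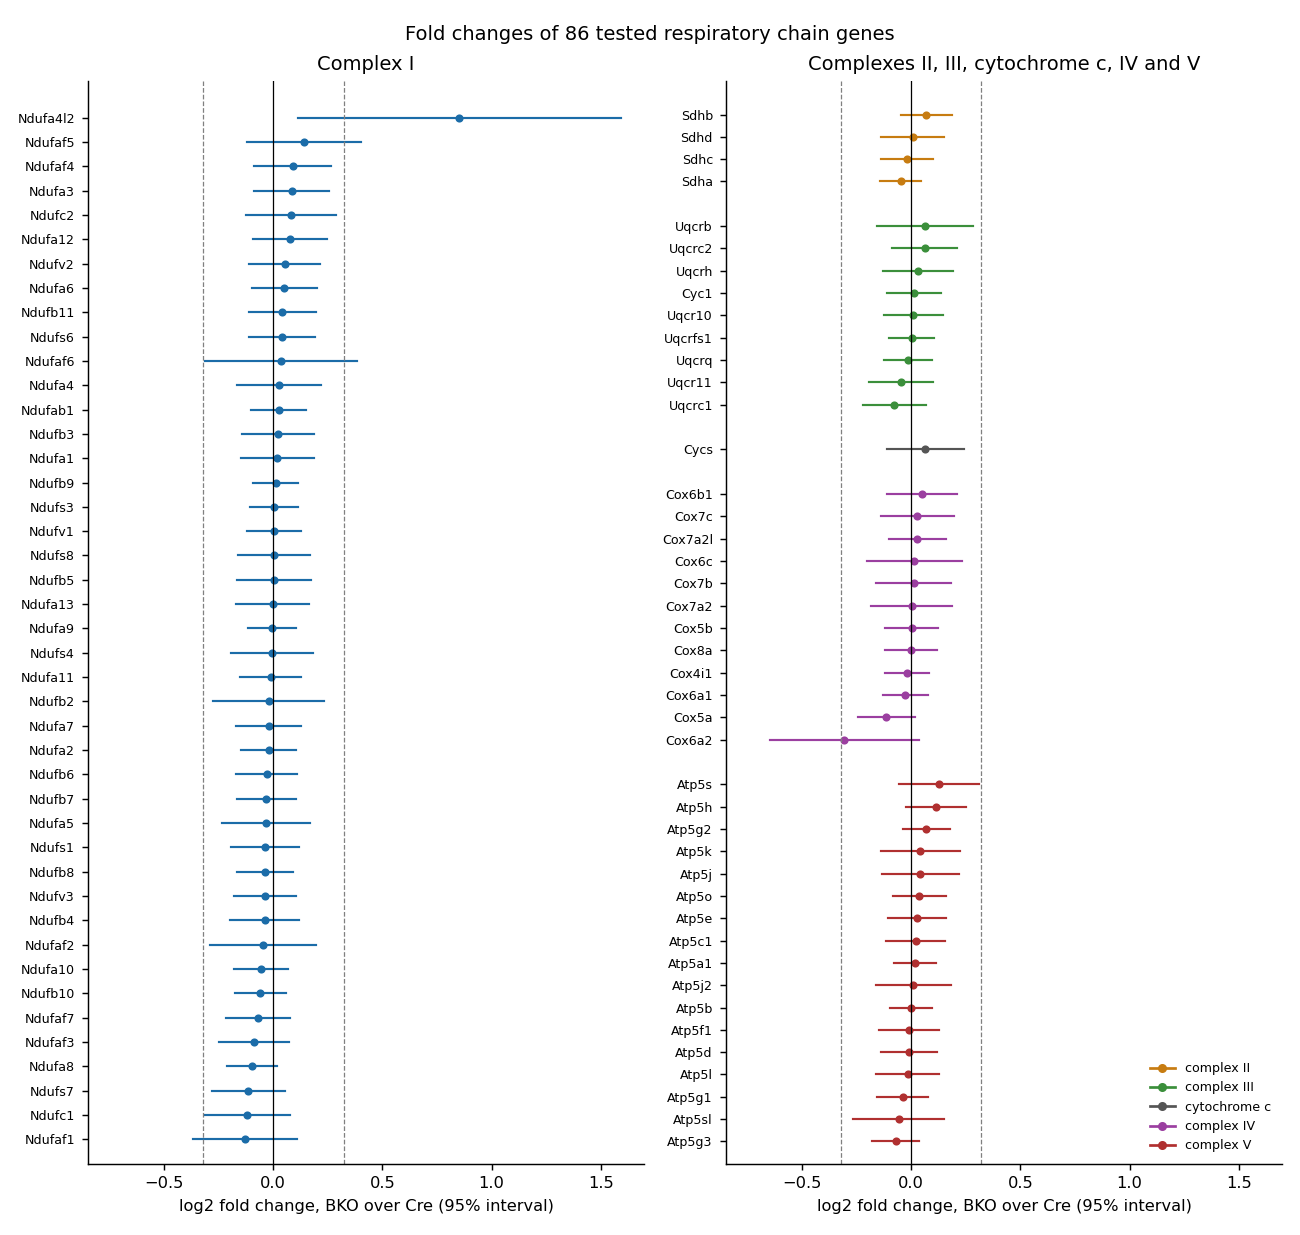
Fold changes of 86 of the tested members, by complex. The x axis is the log2 fold change of BKO over Cre, points are estimates, bars are 95% intervals and dashed lines mark 1.25-fold in either direction. Most bars lie between the dashed lines, and those of Ndufa4l2 and Cox6a2 reach farthest out.

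**Figure D2:**
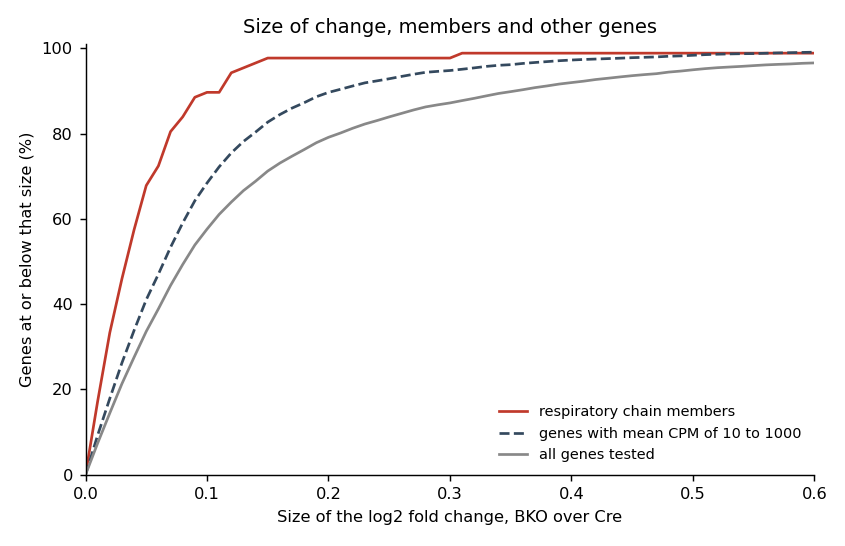
Cumulative share of genes (y axis, percent) by the size of the log2 fold change of BKO over Cre (x axis). Lines stand for the members, for the genes with a mean of 10 to 1000 CPM and for all genes tested. At 0.1 the members' line stands at 89.7%, against 68.4% and 57.6%.

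The median change of each complex was close to 0. The median log2 fold change was -0.0050 in complex I, -0.0069 in complex II, 0.010 in complex III, 0.0023 in complex IV and 0.017 in complex V, against 0.0078 over all genes. Positive fold changes numbered 20 of 44, 2 of 4, 6 of 9, 7 of 12 and 10 of 17 in these complexes. Across all tested members 46 were positive and 41 negative, and 52.8% of all genes were positive.

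Summed per library, complex I reached 2418 ± 188 CPM in BKO and 2427 ± 104 CPM in Cre (mean ± SD over the 6 libraries of each group, here and throughout unless another n is given). Complex II reached 616.9 ± 32.8 CPM in BKO and 623.2 ± 8.66 CPM in Cre. Complex III reached 923.3 ± 50.8 CPM in BKO and 920.0 ± 24.6 CPM in Cre. The means of these sums differed by less than the SD within either group. Complex IV reached 1295 ± 82.7 CPM in BKO and 1295 ± 55.2 CPM in Cre. Complex V reached 3139 ± 133 CPM in BKO and 3125 ± 69.8 CPM in Cre, again closer together than the replicates of a group were.

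The libraries of a genotype differed more from each other than the genotypes did, and in BKO the complexes tended to go up and down together. BKO-1 and BKO-3 had the highest sums of all BKO libraries in each of the 5 complexes, with 9036 and 9105 CPM over all members. The other 4 BKO libraries held 7898 to 8328 CPM, the lowest being BKO-2. Among Cre libraries, Cre-1 had 8748 CPM and Cre-3 had 8050 CPM, the highest and the lowest of that group. The complexes moved together less in Cre. Cre-1 had the highest Cre sums of complexes I and IV, 2570 and 1374 CPM, but the lowest of complex II, 612.2 CPM. The median member of BKO-1 lay 0.16 above the Cre mean on the log2 scale, and that of BKO-2 lay 0.10 below it. BKO-1 and BKO-3 also had the highest β-cell marker sums among BKO libraries, 156260 and 142858 CPM. Cre libraries did not share this order. Cre-4 had the highest β-cell marker sum of that group, 152444 CPM, with 8426 CPM over all members, and Cre-1 had a β-cell marker sum of 131203 CPM. The part of β-cell content in the spread between libraries was not tested.

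**Figure D3:**
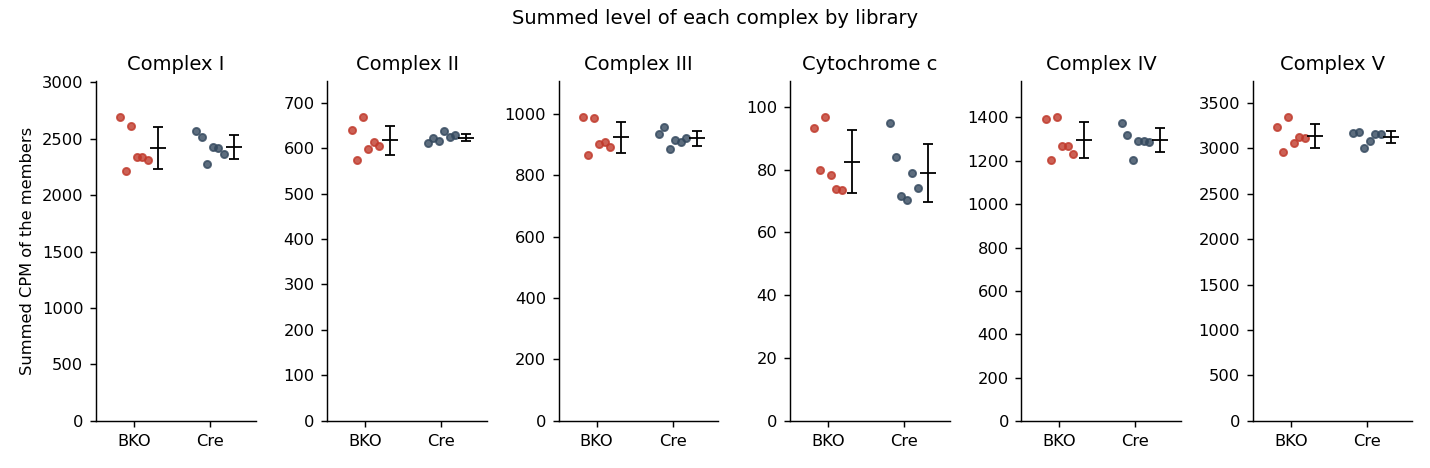
Summed CPM of the members of each complex (y axis from 0) in the 6 BKO and 6 Cre libraries. Points are libraries, and bars are the mean with SD. The groups overlap in every complex, and for complexes I to V 2 BKO libraries stand above the other 4.

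Complex I, the NADH dehydrogenase, had log2 fold changes near 0 in its core. The 7 core subunits had log2 fold changes of -0.11 to 0.052, with a median of 0.0022. Ndufv1, which carries the NADH-binding site, had 74.5 to 91.3 CPM in BKO (median 83.9) and 78.2 to 92.2 CPM in Cre (median 81.8), with a log2 fold change of 0.0032 ± 0.059 (SE). Ndufs1, an iron-sulphur subunit of the same arm, had a log2 fold change of -0.037 ± 0.073. The Ndufv1 levels of the groups overlapped nearly in full.

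The core subunit with the lowest fold change was Ndufs7, in the arm that hands electrons to ubiquinone. It had 34.9 to 44.6 CPM in BKO (median 39.7) and 37.6 to 48.8 CPM in Cre (median 42.1). Its log2 fold change was -0.11 ± 0.079, with an adjusted p of 0.596 by edgeR. The BKO and Cre ranges of Ndufs7 overlapped.

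Of the 29 accessory subunits of complex I, 28 were tested, and their fold intervals all lay within 1.25-fold. Their log2 fold changes ran from -0.12 to 0.084, with 11 positive and 17 negative. Ndufa8, a subunit of the intermembrane space side, had all 6 BKO libraries below the Cre mean. Its levels were 46.6 to 51.3 CPM in BKO (median 47.7) and 47.0 to 54.9 CPM in Cre (median 52.1), so the ranges overlapped. The log2 fold change of Ndufa8 was -0.097 ± 0.054, with an adjusted p of 0.469. Ndufa6 had the highest level per transcript length in complex I, 162.6 ± 19.4 CPM per kb in BKO and 157.1 ± 9.82 CPM per kb in Cre. Ndufa11, whose promoter is printed above, had a log2 fold change of -0.011 ± 0.066.

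The remaining accessory subunit, Ndufs5, was listed at 0 reads in all 12 libraries. Every cell with complex I uses Ndufs5, and the annotation holds 1 near-identical copy of its coding sequence. No level was taken from this 0, and its cause was not tested.

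The 7 Ndufaf genes, whose proteins help to build complex I and leave it, were the least expressed set of the complex. Their median level was 8.11 CPM per kb, against 58.2 CPM per kb for the complex I subunits. Their log2 fold changes ran from -0.13 (Ndufaf1) to 0.14 (Ndufaf5), with 3 positive and 4 negative. Ndufaf5 had 7.85 to 12.6 CPM in BKO (median 9.95) and 8.26 to 9.97 CPM in Cre (median 8.92), with a log2 fold change of 0.14 ± 0.12. Ndufaf4 had 23.9 ± 2.19 CPM in BKO and 22.5 ± 2.35 CPM in Cre. For Ndufaf1, Ndufaf5 and Ndufaf6 the fold interval reached past 1.25-fold (0.775 to 1.08, 0.920 to 1.32 and 0.805 to 1.31), so a change of that size lay inside the intervals of these low genes. Ndufaf1 and Ndufaf6 are named because their intervals were wide, after their values were seen.

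Ndufa4l2 had the largest fold change of the tested members, and no other had an unadjusted p under 0.05. This paralog of Ndufa4 is known to be induced by low oxygen through HIF1 and, in several tissues, to mark pericytes, cells that wrap small vessels. In BKO libraries 1 to 6 it had 16, 36, 15, 13, 15 and 7 reads, and in Cre libraries 1 to 6 it had 14, 7, 10, 14, 6 and 9 reads. In CPM, BKO-2 was highest, 4 of 6 BKO libraries lay above every Cre library, and BKO-4 and BKO-6 lay inside the Cre range. The means were 1.52 ± 0.860 CPM in BKO and 0.845 ± 0.310 CPM in Cre. The log2 fold change was 0.85 ± 0.35, an interval of 1.08 to 3.01 on the fold scale, with an unadjusted p of 0.026 and an adjusted p of 0.300. Without BKO-2 the BKO mean was 1.19 ± 0.320 CPM (n = 5), the log2 fold change 0.48 ± 0.31 and the adjusted p 0.640.

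BKO-2 also had the highest stellate and pericyte marker sum, 251.0 CPM. The other BKO libraries had 169.0 to 225.7 CPM and the Cre libraries 123.7 to 212.7 CPM. BKO-5, with 1.42 CPM of Ndufa4l2, had the 225.7 CPM and the highest endothelial marker sum, 863.2 CPM, against 825.1 CPM in BKO-2. Other libraries went the other way. BKO-6, with the lowest Ndufa4l2 level in BKO, 0.657 CPM, had a stellate and pericyte marker sum of 225.4 CPM. Cre-5, with the lowest Ndufa4l2 level of all, 0.494 CPM, had the highest such sum in Cre, 212.7 CPM. BKO-1 and BKO-3 had 1.38 and 1.37 CPM of Ndufa4l2 with sums of 169.0 and 169.5 CPM. Of the 9 stellate and pericyte markers, 8 had positive fold changes and none was at 0. In this list 0 were called by edgeR, while DESeq2 called 2 higher and the fit that blocks on the replicate number called 4 higher. Sparc, the most abundant of the 9 markers, averaged 133.0 CPM in BKO and 101.9 CPM in Cre. The list's median sums were 213.4 CPM in BKO and 150.3 CPM in Cre, so the sums were mostly Sparc. Rgs5, a pericyte marker, averaged 15.8 ± 1.86 CPM in BKO and 11.2 ± 1.33 CPM in Cre, with a log2 fold change of 0.50 ± 0.10 and an adjusted p of 0.121 by edgeR. Hif1a, the gene of the oxygen-regulated factor itself, averaged 147.3 ± 19.5 CPM in BKO and 120.4 ± 9.15 CPM in Cre, with an adjusted p of 0.155 by edgeR. This is its transcript, and the protein was not measured. Vegfa, looked up beside Hif1a, averaged 600.5 ± 57.7 CPM in BKO and 568.0 ± 31.3 CPM in Cre. The log2 fold change of Vegfa was 0.080 ± 0.063, with an adjusted p of 0.649 by edgeR. With the endothelial score as a covariate the log2 fold change of Ndufa4l2 was 0.67, against 0.85 without it, with an adjusted p of 0.978 by edgeR. Uqcr11, with a log2 fold change of 0.079 in that fit, also had an adjusted p of 0.978. The score was itself higher in BKO (5.47 against 5.04 in Cre, as mean log2 CPM), so score and genotype are not fully separable there. The part of vessel cells in the Ndufa4l2 values was not tested further. The gene lies at chr10:127514967-127517154 (plus strand), and an exon of it overlaps Shmt2 on the opposite strand, a gene with 914 to 1112 reads in BKO and 952 to 1081 in Cre. Whether reads were counted by strand was not given in the sources used here. Without strand, reads that fall within such an overlap cannot be assigned to either gene. Of the 94 members, 32 have an exon that overlaps another annotated gene. Ndufs1, Cox4i1, Cox5a, Atp5a1 and Atp5l are among those with the other gene on the opposite strand, so the limit holds for their levels too.

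Ndufa4, the widely expressed paralog and a subunit of complex IV, had a fold interval of 0.892 to 1.16. Its levels were 77.4 to 117.1 CPM in BKO (median 88.5) and 86.8 to 106.4 CPM in Cre (median 87.9), with a log2 fold change of 0.027 ± 0.090. Per transcript length, Ndufa4l2 made up 1.08 ± 0.676% of the pair in BKO and 0.594 ± 0.205% in Cre.

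**Figure D4:**
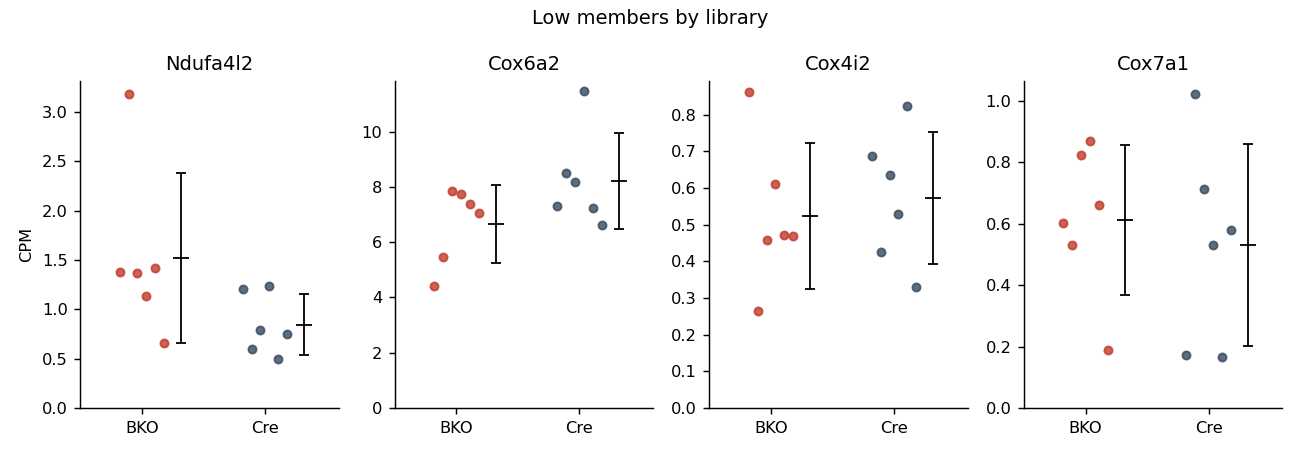
CPM (y axis from 0) of 4 low members, Ndufa4l2, Cox6a2, Cox4i2 and Cox7a1, in each of the 6 BKO and 6 Cre libraries. Points are libraries, and bars are the mean with SD. For Ndufa4l2 1 BKO library lies at 3.18 CPM above all others, and for Cox6a2 the 6 BKO libraries lie below the Cre mean of 8.23 CPM.

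Complex II, succinate dehydrogenase, belongs to both the citric acid cycle and the chain, and its 4 subunits are all nuclear. The flavoprotein Sdha, which oxidises succinate, had 262.5 to 283.9 CPM in BKO (median 270.9) and 264.5 to 292.7 CPM in Cre (median 283.3), with a log2 fold change of -0.047 ± 0.044. The iron-sulphur subunit Sdhb had 68.5 to 81.0 CPM in BKO (median 69.8) and 63.6 to 73.1 CPM in Cre (median 69.0), with a log2 fold change of 0.070 ± 0.055. The groups overlapped for both catalytic subunits, and their adjusted p-values were 0.715 and 0.644. The membrane anchors Sdhc and Sdhd had log2 fold changes of -0.020 ± 0.057 and 0.0065 ± 0.068. All 4 intervals lay within 1.25-fold, the widest bounds being 0.907 for Sdha and 1.14 for Sdhb. Sdhd was the most abundant per length, with 136.4 ± 15.7 CPM per kb in BKO and 135.8 ± 7.23 CPM per kb in Cre, and Sdhc the least, with 32.7 ± 2.35 CPM per kb in BKO and 33.2 ± 1.94 CPM per kb in Cre.

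Complex III, the cytochrome bc1 complex, passes electrons from ubiquinol to cytochrome c. Its 9 nuclear members had log2 fold changes of -0.077 to 0.065. Cyc1, the cytochrome c1 subunit, had 99.0 to 118.3 CPM in BKO (median 100.6) and 89.5 to 110.5 CPM in Cre (median 104.2). Uqcrfs1, the Rieske iron-sulphur protein, averaged 77.4 ± 4.05 CPM in BKO and 77.3 ± 2.52 CPM in Cre. Both catalytic subunits thus had nearly equal means, with log2 fold changes of 0.014 ± 0.059 and 0.0024 ± 0.048. The core proteins Uqcrc1 and Uqcrc2, relatives of processing peptidases, had log2 fold changes of -0.077 ± 0.069 and 0.062 ± 0.071. Uqcrc1 had 113.1 to 129.7 CPM in BKO (median 128.4) and 105.9 to 150.3 CPM in Cre (median 132.1), so every BKO library lay below the Cre mean of 130.8 CPM but inside the Cre range. Among the small subunits, Uqcrh had 83.5 ± 10.4 CPM in BKO and 81.8 ± 6.83 CPM in Cre, Uqcrb 89.7 ± 14.7 CPM in BKO and 85.8 ± 10.6 CPM in Cre, and Uqcr11 52.0 ± 5.54 CPM in BKO and 53.6 ± 3.56 CPM in Cre.

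Cytochrome c is the soluble carrier between complexes III and IV, and is also known as a trigger of apoptosis when it leaves mitochondria. Its somatic gene Cycs had 73.6 to 96.6 CPM in BKO (median 79.0) and 70.4 to 94.8 CPM in Cre (median 76.4). BKO-1, BKO-3 and Cre-1 were high. The log2 fold change was 0.064 ± 0.084, with an adjusted p of 0.818 and a fold interval of 0.925 to 1.18. The annotation holds 4 near-identical copies of its coding sequence, so its reads may be split.

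Complex IV, cytochrome c oxidase, is the complex whose nuclear subunits come in tissue isoforms, and most of its islet reads came from the widely expressed ones. The 10 widely expressed subunits had log2 fold changes of -0.11 to 0.049, and all 10 intervals lay within 1.25-fold. Cox5a, a matrix-side subunit, was lowest, with 51.0 to 65.3 CPM in BKO (median 53.7) and 57.4 to 63.6 CPM in Cre (median 60.9). In BKO, 5 of 6 libraries lay below the Cre mean, and BKO-4 lay above every Cre library. The log2 fold change of Cox5a was -0.11 ± 0.062, with an adjusted p of 0.459. Cox4i1, Cox6a1 and Cox8a had log2 fold changes of -0.019 ± 0.048, -0.027 ± 0.049 and -1.2e-04 ± 0.057. Cox6b1, Cox7c and Cox7a2 had 0.049 ± 0.076, 0.029 ± 0.079 and 0.0024 ± 0.088. Cox7a2l, the supercomplex factor, averaged 181.4 ± 13.3 CPM in BKO and 178.0 ± 14.4 CPM in Cre.

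Cox6a2, the isoform of heart and skeletal muscle, was the tissue isoform with enough reads to test. It had 51, 62, 86, 89, 78 and 75 reads in BKO libraries 1 to 6 and 85, 100, 103, 130, 88 and 80 reads in Cre libraries 1 to 6. All 6 BKO libraries lay below the Cre mean in CPM, and the ranges overlapped (4.40 to 7.87 CPM in BKO, median 7.21, and 6.62 to 11.5 CPM in Cre, median 7.75). The log2 fold change was -0.31 ± 0.16, with a fold interval of 0.639 to 1.02, an unadjusted p of 0.075 and an adjusted p of 0.436. Muscle markers were near 0, with a summed 1.47 to 2.08 CPM in BKO and 1.51 to 2.98 CPM in Cre over 5 genes, 1 of them at 0 in every library. The gene lies at chr7:128205435-128206387 (minus strand) and overlaps Itgad on the opposite strand, which had only 4 to 10 reads in BKO and 4 to 11 in Cre. Per length, Cox6a2 made up 3.99 ± 0.742% of the Cox6a1 and Cox6a2 pair in BKO and 4.82 ± 0.873% in Cre.

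The other tissue isoforms were at a trace. Cox4i2, the lung isoform known to respond to low oxygen, had 35 reads over the 6 BKO libraries and 41 over the 6 Cre libraries (exact two-sided permutation p over libraries = 0.647), and made up 0.304 ± 0.116% of the Cox4 pair in BKO and 0.331 ± 0.109% in Cre. Cox7a1, a heart and muscle isoform, had 41 reads in BKO and 38 in Cre (p = 0.639 by the same exact permutation test), or 1.24 ± 0.509% of its pair in BKO and 1.09 ± 0.658% in Cre. Cox6b2, a testis isoform, had 17 reads in BKO and 23 in Cre (exact permutation test, p = 0.578). The library values of the groups overlapped for all 3. Cox7b2 and Cox8b had 3 and 2 reads in BKO and 3 and 1 in Cre, at or under 3 reads in every library, and Cox8c had none, so no fold is given. A library with 3 reads, the least taken as a signal, stands at 0.242 to 0.290 CPM.

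Complex V is the ATP synthase, which makes ATP as protons flow back into the matrix. Of its F1 head, the catalytic β subunit Atp5b had 740.2 to 806.8 CPM in BKO (median 787.9) and 754.4 to 804.9 CPM in Cre (median 780.9). The groups overlapped nearly in full, with a log2 fold change of -0.0011 ± 0.045 and a fold interval of 0.935 to 1.07. The α subunit Atp5a1 had a log2 fold change of 0.017 ± 0.045, and the pair took 17.6% of the members' reads, a share not corrected for length. All 5 F1 subunits had log2 fold changes of -0.011 to 0.027.

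The c ring, which turns as protons pass, is built from 3 genes that code for the same mature protein. Atp5g1 had 118.4 to 137.8 CPM in BKO (median 127.2) and 118.9 to 139.3 CPM in Cre (median 136.2). Atp5g2 had 106.4 to 126.3 CPM in BKO (median 116.2) and 101.5 to 116.3 CPM in Cre (median 112.5), with 5 of 6 BKO libraries above the Cre mean. Atp5g3 had 146.4 to 167.6 CPM in BKO (median 155.0) and 148.0 to 173.6 CPM in Cre (median 166.7), and 5 of 6 BKO libraries lay under the Cre mean. Their log2 fold changes were -0.039 ± 0.055, 0.070 ± 0.052 and -0.070 ± 0.051, none with an adjusted p under 0.613. Per length, Atp5g1, Atp5g2 and Atp5g3 made up 30.8 ± 0.740%, 37.9 ± 1.14% and 31.3 ± 1.73% of the c-subunit transcripts in BKO, and 31.5 ± 1.44%, 35.9 ± 1.30% and 32.6 ± 1.07% in Cre. These shares were not tested, and they rest on the transcript lengths used, since the longest principal transcript takes Atp5g1 to 27.6 CPM per kb from 218.5 CPM per kb.

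Of the stalk and membrane subunits of complex V, Atp5h, part of the peripheral stalk that holds the head still, had 84.6 to 111.7 CPM in BKO (median 91.8) and 81.0 to 95.1 CPM in Cre (median 87.3). BKO-1 and BKO-3 lay above every Cre library, and the other 4 BKO libraries overlapped with Cre. Its log2 fold change was 0.11 ± 0.065, with an adjusted p of 0.493, and the annotation holds 4 copies of its coding sequence. Atp5l, a subunit that helps to pair synthases, had a log2 fold change of -0.016 ± 0.068, and with 9 annotated copies its level is uncertain. Atp5s, a factor linked to the synthase, averaged 11.3 ± 0.675 CPM in BKO and 10.3 ± 0.639 CPM in Cre, with a log2 fold change of 0.13 ± 0.087. Atp5sl, whose product is a complex I assembly factor despite its symbol, averaged 18.3 ± 2.53 CPM in BKO and 19.0 ± 2.10 CPM in Cre.

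Levels per transcript length spread far more between members than between genotypes. By median over tested members they were 54.4 CPM per kb in complex I, 78.8 in complex II, 119 in complex III, 149 in complex IV and 158 CPM per kb in complex V. With the longest principal transcript taken for the length, a choice made after seeing the data, the medians were 139 CPM per kb in complex IV and 133 CPM per kb in complex V, so the order of these 2 complexes rests on the transcript. Atp5b had 407.2 ± 15.4 CPM per kb in BKO and 407.5 ± 11.04 CPM per kb in Cre. Uqcrq, a small subunit of complex III, had 403.0 ± 19.5 CPM per kb in BKO and 407.3 ± 25.7 CPM per kb in Cre, which does not differ from Atp5b beyond the spread. The rank of Uqcrq rests on that choice too, since its longest principal transcript gives 108 CPM per kb. Atp5l, uncertain for its copies, had 385.9 ± 41.8 CPM per kb in BKO and 390.1 ± 25.1 in Cre. Cox8a, the isoform that most tissues use, had 287.2 ± 21.8 CPM per kb in BKO and 287.2 ± 15.6 in Cre, next to Atp5a1 with 290.4 ± 12.6 in BKO and 287.1 ± 6.05 in Cre. At the other end stood Ndufa4l2, with 1.63 ± 0.921 CPM per kb in BKO and 0.905 ± 0.332 in Cre.

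**Figure D5:**
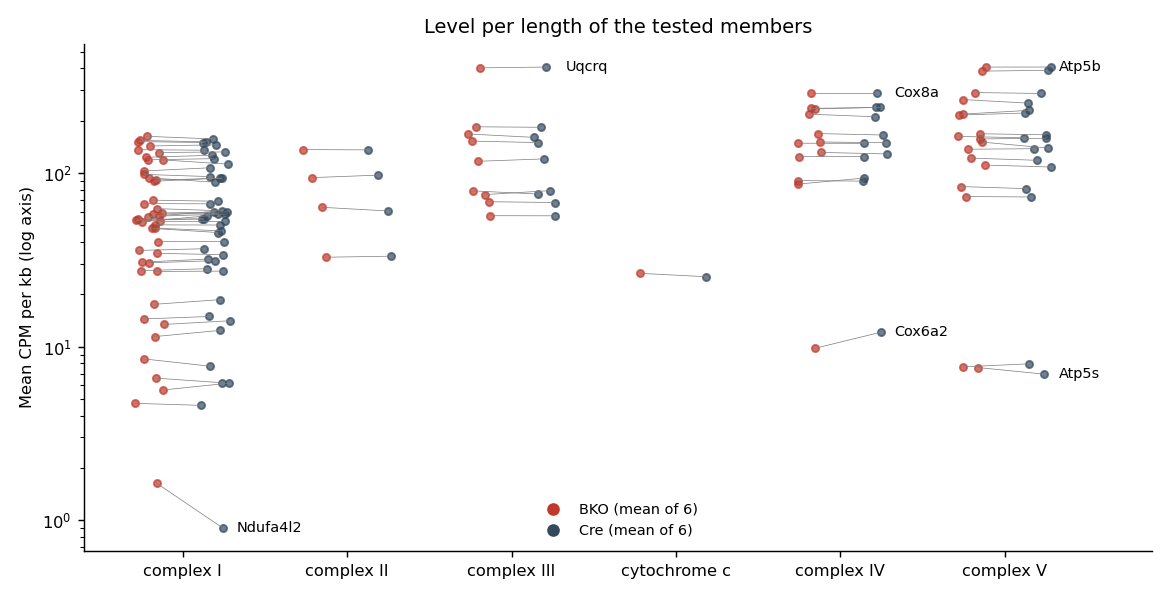
Mean level per transcript length (CPM per kb, log axis) of the tested members by complex. Lines join the mean of 6 BKO libraries, on the left, with the mean of 6 Cre libraries. Lines are nearly flat except for Ndufa4l2 and Cox6a2.

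Genes that build or serve the chain outside these symbols were called in 0 cases in each of 7 lists by edgeR, and of the 72 tested, 2 were higher and 1 lower at an unadjusted p under 0.05, which is 4.17%, against 13.4% of all genes (8.7% higher and 4.66% lower). Of 23 tested assembly factors of complex IV, 5 had positive and 18 negative fold changes, with a median of -0.069. The list's lowest p belonged to Higd1a, a small inner-membrane protein known to be induced by low oxygen and to act on complexes III and IV. It had 11.4 to 22.8 CPM in BKO and 6.09 to 11.7 CPM in Cre, so the groups overlapped by a narrow margin. Its means were 15.7 ± 4.94 CPM in BKO and 9.06 ± 1.82 CPM in Cre, which gave a log2 fold change of 0.79 ± 0.19 with an adjusted p of 0.148 by edgeR and 0.0127 by DESeq2. Over all alternatives the adjusted p of Higd1a ran from 0.0063 with the replicate number as a block to 0.978 with the endothelial score as a covariate. Its log2 fold change ran from 0.63 to 0.87. The 0.63 was from the edgeR fit with the endothelial score, where its unadjusted p was 0.055. In that fit Uqcr11, with a log2 fold change of 0.079, also had an adjusted p of 0.978. DESeq2 called no other gene of the 7 lists.

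The 8 tested assembly factors of complex I outside the Ndufaf series had 1 positive and 7 negative fold changes, with a median of -0.067. Of them, Acad9 had -0.091 ± 0.062 and Tmem126b -0.17 ± 0.12. The median was -0.040 over 4 assembly factors of complex II, 0.0058 over 6 of complex III, -0.027 over 6 of complex V and -0.026 over 13 genes of coenzyme Q synthesis. Sdhaf3 had a log2 fold change of -0.29 ± 0.18, and Coq8a (listed as Adck3), a kinase-like protein of coenzyme Q synthesis, -0.23 ± 0.10 with an adjusted p of 0.353.

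Of the 12 regulators of respiratory genes, 7 had positive and 5 negative fold changes, with a median of 0.023. Ppargc1a, the coactivator PGC-1α that drives mitochondrial genes in muscle and brown fat, averaged 3.95 ± 1.33 CPM in BKO and 2.80 ± 0.742 CPM in Cre, with an adjusted p of 0.369. Nrf1, whose letters were searched in the promoters, averaged 35.2 ± 4.57 CPM in BKO and 37.8 ± 5.46 CPM in Cre. Gabpb1, a subunit of GABP, averaged 22.4 ± 2.48 CPM in BKO and 20.1 ± 1.49 CPM in Cre. Tfam, which packs mitochondrial DNA and helps to start its transcription, had a log2 fold change of -0.019 ± 0.076.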

How the data were processed

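Paired-end RNA sequencing of islets was done in 6 BKO and 6 Cre samples. The submitters' processing notes name HISAT2 2.0.5, HTSeq and mm10, and the annotation and strand setting were not given in the sources used here. As values, the authors deposited raw read counts per gene symbol, and htseq-count's summary lines were kept out. A series-wide table of the same samples was not used. Members were the symbols that matched the rule. The members and lists were chosen with earlier results of these data known.

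The test was edgeR 4.0.16 (R 4.3.3): filterByExpr, TMM, glmQLFit with robust shrinkage and Benjamini-Hochberg adjustment over 13583 genes at 0.05. CPM used TMM-scaled library sizes. Fold intervals are 95% intervals of that fit. CPM per kb used the principal transcript of GENCODE M21 (GRCm38). Copies were other annotated loci with at least 95% identity over 100 bases of coding sequence. Counting error at 3 reads sets the floor. In simulated data 30%, 80%, 96% and 100% of genes changed 1.25-, 1.5-, 2- and 3-fold were recovered among 13470 genes. Each simulated gene was drawn on its own, with a spread set by its expression level alone. Spread particular to a gene, or shared between genes of a library, was left out. Recovery in the real libraries may therefore be lower.

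Named members were, per complex, the 3 with the smallest p in each direction and the highest and lowest per kb, all of complex II, Cycs, Cyc1, isoform pairs and c-subunit genes. 1 member that the rule takes is not reported here. Others named stand beside a group's range, a wide interval, a printed promoter or a level. Alternatives were RLE and upper-quartile scaling, other count filters, DESeq2 1.42.0, limma-voom (limma 3.58.1), no robust shrinkage, a replicate block, an acinar or endothelial score as covariate, a threshold of 0.1 and each library left out. The longest principal transcript for levels per kb was added after seeing the data.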

Additional observations from a re-analysis of the deposited data

Results flagged for a closer look

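Of 96 groups of 6 libraries checked for a library far from its group, 4 had one, and chance alone flags about 1 group in 20. Ndufa4l2 had 3.18 CPM in BKO-2, against 0.657 to 1.42 CPM in the other BKO libraries. Cyc1, the cytochrome c1 subunit, had 118.3 CPM in BKO-5, against 99.0 to 104.7 CPM in the other BKO libraries. Uqcrh, a small subunit of complex III, had 95.4 CPM in Cre-1, against 77.1 to 81.8 CPM in the other Cre libraries. Cox8b, a muscle-type isoform, had 0.0883 CPM in Cre-4, which is 1 read, and 0 in the other Cre libraries.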

How the results depend on the processing

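The count of members called was 0 in both directions under all 22 other fits and at an adjusted p under 0.1. Members higher at an unadjusted p under 0.05 numbered 0 with at least 10 reads required in all libraries, which left Ndufa4l2 untested. They numbered 0 with the acinar score and 3 with the endothelial score. Members lower at that p numbered 1 with the replicate block and 2 with the acinar score. Leaving out 1 library gave 0 to 1 higher (0 without BKO-2, Cre-2 or Cre-5) and 0 to 2 lower (1 or 2 without BKO-4, BKO-5, BKO-6, Cre-1, Cre-3 or Cre-6). Complex II had a median log2 fold change of 0.077 with the endothelial score, which was itself higher in BKO (5.47 in BKO against 5.04 in Cre, as mean log2 CPM). Some members near 0 changed sign, and the cause was not tested. RLE scaling gave -0.0077 for Cox7a2, -0.0036 for Sdhd and -0.0074 for Uqcrfs1. Upper-quartile scaling gave 0.0039 for Atp5b and 0.0048 for Cox8a. No count filter gave -0.011 for Cox7a2, -0.0068 for Sdhd and -0.011 for Uqcrfs1, and the stricter filter -0.0029 for Cox7a2 and -0.0027 for Uqcrfs1. DESeq2 gave -0.0078 for Cox7a2, -0.0036 for Sdhd and -0.0072 for Uqcrfs1. Limma-voom gave -0.020 for Cox7a2, -0.011 for Cyc1, -0.015 for Sdhd and -0.0012 for Uqcrh. The replicate block gave -0.0039 for Cox7a2. The acinar score gave 1.8e-04 for Atp5b, 0.0020 for Cox4i1, -0.017 for Cox7a2, -3.6e-04 for Cox7c and 0.027 for Sdhc. The endothelial score gave 0.013 for Atp5sl, 0.020 for Cox8a, -0.054 for Cyc1, 0.046 for Sdhc and 0.079 for Uqcr11. With 1 library left out, log2 fold changes ran from -0.026 to 0.0035 for Atp5b, -0.0055 to 0.080 for Cox6b1, -0.068 to 0.029 for Cox7a2, -0.011 to 0.051 for Cox7a2l, -0.017 to 0.068 for Cox7c, -0.035 to 0.0060 for Cox8a, -0.039 to 0.028 for Cyc1, -0.053 to 0.064 for Ndufa4, -7.6e-04 to 0.067 for Ndufa6, -0.039 to 0.023 for Sdhd, -0.021 to 0.11 for Uqcrb, -0.022 to 0.0079 for Uqcrfs1 and -0.038 to 0.061 for Uqcrh.

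Same-numbered BKO and Cre samples were not shown to be paired: their deviations correlated between -0.15 and 0.38, over 0.1 in 4 of 6 pairs, and 3 of 6 numbers matched their own best. Over all genes, edgeR called 292 higher and 72 lower with the replicate block, 169 and 54 were called by DESeq2, and 135 and 127 by edgeR without BKO-4 and 105 and 5 without Cre-5, against 0 and 0 in the main test.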
